A study of Mus musculus with 2 samples.

Results

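The guanylate-binding proteins (Gbp genes) were read in mouse CD8+ T cells grown with bezafibrate or with its solvent, dimethyl sulfoxide (DMSO). Members were the genes whose symbol in the platform annotation starts with Gbp followed by a digit, with every probe set that names them, alone or with others. These were 11 of the 23981 genes named on the array, read by 11 of its 25335 gene-naming probe sets. The symbols Gbp3, Gbp4, Gbp5, Gbp6, Gbp7, Gbp8, Gbp9, Gbp10, Gbp11 and Gbp2b each had a probe set of their own. Gbp2 had none, and its only reading came from a probe set shared with Gbp2b. The family was chosen by the log2 signals of these same 2 arrays, so its counts and ratios describe the arrays and carry no test.

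The study holds 2 arrays, 1 for each group. Naive CD8+ T cells of both groups were activated with beads carrying antibodies to CD3 and CD28 and grown with recombinant human interleukin-2 at 100 U/mL. The control culture received DMSO. The other culture received bezafibrate, a lipid-lowering drug and agonist of PPARs (peroxisome proliferator-activated receptors), at 30 µM for the whole culture, which ran to day 13. The labels state no strain, sex or age of the mice and do not say whether animals were pooled. Since each group has a single array, no replicate error and no p-value can be given, and each ratio compares 2 arrays rather than 2 conditions.

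Guanylate-binding proteins are large GTPases of the dynamin superfamily that interferon-gamma induces strongly, with a smaller response to type I interferon. They assemble as coats on vacuoles that hold parasites or bacteria and on bacteria themselves, disrupt those membranes, and promote caspase activation and pyroptosis. Gbp2, Gbp5 and Gbp2b end in a CaaX box that takes a prenyl lipid anchor. Activated T cells both secrete interferon-gamma and respond to it, and many of its target genes are switched on in them. In the mouse the genes lie in a cluster on chromosome 3 and another on chromosome 5.

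Promoters were searched for the interferon-stimulated response element (ISRE), a sequence through which interferons act. The table of RefSeq promoters (GRCm38.p6) held none for Gbp4, Gbp6, Gbp8, Gbp9, Gbp10 and Gbp11, so the chromosome 5 cluster was not searched. It held windows for Gbp5, Gbp7, Gbp3, Gbp2b and Gbp2 of the chromosome 3 cluster. Below are the 250 bases before the start site of Gbp7, which had the largest ratio above background in that cluster, and of Gbp2 and Gbp2b, which share a probe set. Capitals mark matches to the ISRE core, taken as 2 copies of GAAA with 2 bases between them, which appear here on the reverse strand as copies of TTTC. The windows are chr3:142530086-142530335 for Gbp7, chr3:142620413-142620662 for Gbp2 and chr3:142594597-142594846 for Gbp2b, all on the plus strand.
Gbp7: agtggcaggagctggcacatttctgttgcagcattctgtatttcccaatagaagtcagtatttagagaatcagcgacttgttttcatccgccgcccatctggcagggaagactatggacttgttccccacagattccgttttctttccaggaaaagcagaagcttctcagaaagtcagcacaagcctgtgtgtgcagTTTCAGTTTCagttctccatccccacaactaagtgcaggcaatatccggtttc
Gbp2: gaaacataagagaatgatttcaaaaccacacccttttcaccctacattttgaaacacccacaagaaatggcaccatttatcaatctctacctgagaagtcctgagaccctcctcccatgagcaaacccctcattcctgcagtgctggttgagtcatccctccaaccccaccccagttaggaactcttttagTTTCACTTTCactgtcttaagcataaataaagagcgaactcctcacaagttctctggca
Gbp2b: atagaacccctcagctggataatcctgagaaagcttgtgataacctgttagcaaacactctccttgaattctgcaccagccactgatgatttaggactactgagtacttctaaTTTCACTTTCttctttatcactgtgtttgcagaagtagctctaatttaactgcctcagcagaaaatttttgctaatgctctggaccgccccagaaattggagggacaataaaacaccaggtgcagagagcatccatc

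The search used both strands of windows that run from 250 bases before the start to 50 after it. The 5 genes had 6 windows, Gbp3 having a pair, and 5 windows, 1 of each gene, held an ISRE core match. Among 32851 such windows of all genes, 3.44% held a match. The match began 53 bases before the start in Gbp7 and 59 bases before it in Gbp2, and its letters were TTTCAGTTTC and TTTCACTTTC. Gbp2b had the same 10 letters as Gbp2, but 137 bases before the start. Gbp3 had 2 matches that overlap each other, beginning 45 and 39 bases before its start, and Gbp5 had 1 match that began 165 bases before its start. These are letter matches and do not show that a factor was bound.

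Of the 11 Gbp probe sets, 10 read higher on the bezafibrate array and 1 read lower. Their median log2 ratio, bezafibrate over control, was 0.20. None of the 11 was past 1.5-fold in either direction. Over all probe sets that name a gene, 44.3% had a ratio above 0, 2.58% were past 1.5-fold in either direction, and the median ratio was 0.00. The share above 0 depended on the scaling and reached 55.3% with ratios centred on housekeeping genes, where 10 Gbp probe sets were still above 0. Past a smaller limit, a log2 ratio of 0.32 in size, 3 Gbp probe sets were higher and 0 lower, against 7.46% and 9.19% of all. Signals of different probe sets depend on their probes, so no Gbp gene is ranked above another by level.

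To set a background, 1390 odorant and pheromone receptor genes, not known to be active in T cells, were taken as silent. Their 95th percentile was a log2 signal of 4.71 for control and 4.68 for bezafibrate. Any signal at or below it is called within background. A further limit, the floor, was the median of all genes (4.88 and 4.85). By both limits 9 Gbp probe sets were above and 2, those of Gbp2b alone and Gbp6, were below on both arrays. All 9 above the floor read higher with bezafibrate, by 0.04 to 0.47, while 47.7% of the 12888 gene-naming probe sets above the floor had a ratio above 0. The central 95% of those 12888 ran from −0.43 to 0.42, so Gbp4 and Gbp11 lay just outside that span and the other 7 within it.

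**Figure D1:**
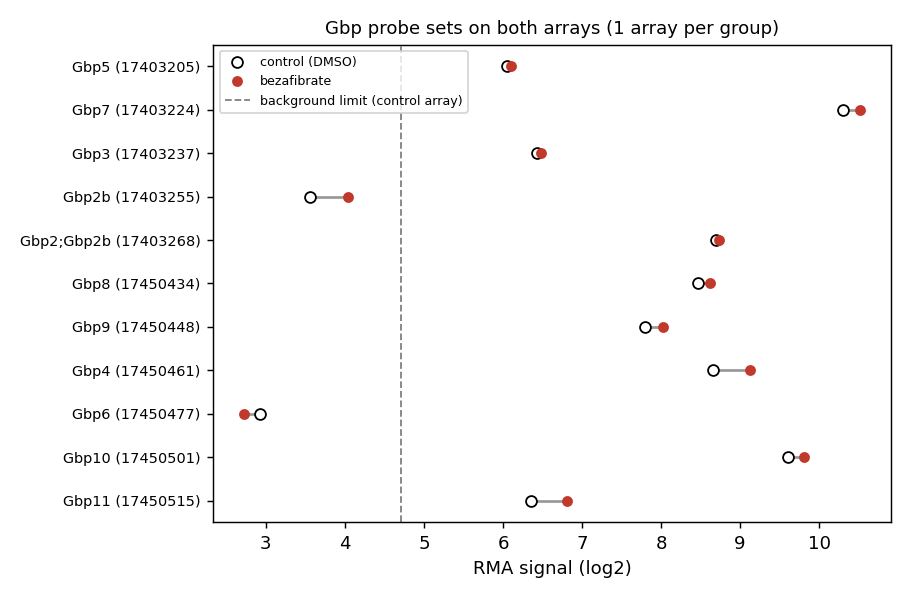
RMA signal (log2, x axis) of each Gbp probe set on the control array (open) and the bezafibrate array (filled), with the background limit of the control array dashed at 4.71. The bezafibrate point lies to the right for 10 of 11 probe sets, and both points of Gbp2b alone and of Gbp6 lie left of the limit.

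Among the prenylated members, Gbp2 could be read only together with Gbp2b. Their shared probe set (17403268) had a log2 signal of 8.70 in control and 8.73 with bezafibrate. The ratio of 0.04, or 1.03-fold, was the smallest of the 9 above the floor, and 41.8% of probe sets above the floor had a ratio as high. Gbp2 is recruited to the vacuole of Toxoplasma gondii and restricts the parasite. Gbp5, which promotes assembly of the NLRP3 inflammasome, had signals of 6.05 and 6.10 (probe set 17403205, 1.04-fold). The shared probe set and that of Gbp5 thus each read nearly the same on both arrays, and Gbp2 itself was not read apart from Gbp2b.

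The probe set of Gbp2b alone (17403255), the gene formerly named Gbp1, read 3.55 in control and 4.04 with bezafibrate. Both signals lay below the background limit, so no fold is given and the difference is not ranked with the others. The shared and the single probe set both read higher with bezafibrate, but only the shared one was above background, so whether they agree in size could not be read. This was the single case in the family where a gene had both kinds of probe set.

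Over all genes with both kinds, 1704 pairs of a shared probe set and the brightest single one had the same sign in 50.2% of cases. Their ratios differed by a median of 0.23. In the 180 pairs with the shared probe set above the floor and the single one not, as for Gbp2b, 41.7% had the same sign and the median difference was 0.19. The probe sets do not say how Gbp2 and Gbp2b divide the signal of 8.70. Single-gene probe sets were compared with each other in the same way. In 441 genes with at least 2 single-gene probe sets above the floor, the brightest pair had the same sign in 54.0% and differed by a median of 0.20. Where the brighter of these was past a log2 ratio of 0.32, the dimmer had the same sign in 6 of 15 genes. Each Gbp gene outside this pair rests on 1 probe set.

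The remaining members of the chromosome 3 cluster were Gbp7 and Gbp3. Gbp7, which helps deliver oxidase and autophagy components to vacuoles, had signals of 10.31 in control and 10.51 with bezafibrate (probe set 17403224). It read 1.15-fold higher, and 15.1% of probe sets above the floor had a ratio as high. Gbp3, a member of the same cluster and one of the proteins that coat vacuoles, had 6.43 and 6.48 (probe set 17403237), a 1.03-fold difference. The 4 probe sets of this cluster above the floor had a median log2 ratio of 0.05, and Gbp7 alone of them exceeded 0.1 on that scale.

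The largest Gbp ratios above background were read in the chromosome 5 cluster. Gbp4 (probe set 17450461) read 8.66 in control and 9.12 with bezafibrate, 1.38-fold higher, and 1.87% of probe sets above the floor had a ratio as high. Gbp11 (probe set 17450515), which RefSeq lists as a transcribed pseudogene, read 6.35 and 6.82, also 1.38-fold higher, with 1.78% as high. These were the only Gbp probe sets above background past a log2 ratio of 0.32, against 5.94% of probe sets above the floor. Gbp4 is a protein-coding member of the cluster, so the largest ratios came from a coding gene and a pseudogene.

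Gbp9 and Gbp10 followed with smaller ratios. Gbp9 (probe set 17450448), which also gathers on Toxoplasma vacuoles, read 7.79 in control and 8.03 with bezafibrate, 1.18-fold higher. Gbp10 (probe set 17450501) read 9.61 and 9.81, 1.15-fold higher. Gbp8 (probe set 17450434) read 8.47 and 8.62, 1.11-fold higher. The 5 probe sets of this cluster above the floor ran from 0.15 to 0.47 on the log2 scale with a median of 0.24. They overlapped the chromosome 3 cluster, since Gbp7 there had a larger ratio than Gbp8 and Gbp10, and the difference between the clusters was not tested.

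Gbp6 was the exception in direction. Its probe set (17450477) read 2.93 in control and 2.72 with bezafibrate, within background on both arrays, so no fold is given. Gbp6 and Gbp10 are neighbours of closely similar sequence, and the annotation gives each a probe set of its own. Whether probes of either also bind transcripts of the other was not tested, since probe sequences were not used here. The same limit holds for other near copies in the family.

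**Figure D2:**
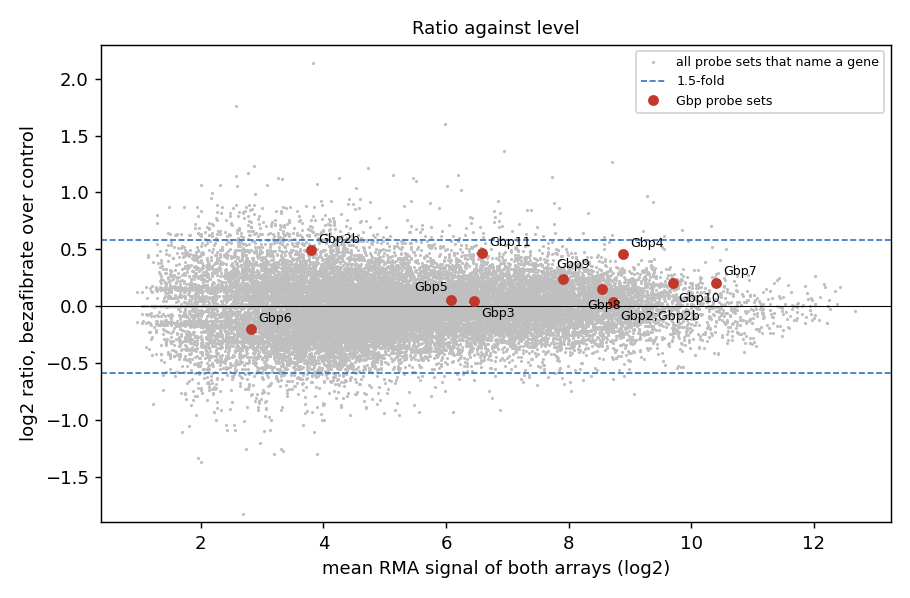
Log2 ratio of bezafibrate over control (y axis) against the mean log2 signal of both arrays (x axis) for all 25335 gene-naming probe sets (grey) and the 11 Gbp probe sets (red), with 1.5-fold dashed. All Gbp points lie between the dashed lines, and all but Gbp6 lie above 0.

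Genes beside the clusters were read for comparison. The order of genes was taken from RefSeq (GRCm38.p6) and the nearest 3 protein-coding genes with a single-gene probe set were read on each side of each cluster. Of these 12 flanking genes 9 were above the floor, of which 3 read higher and 6 read lower. Their median ratio was −0.02. Next to the chromosome 3 cluster, Pdlim5 had a ratio of −0.02 and Kyat3 −0.02. Next to the chromosome 5 cluster, Abcg3 had −0.20 and Lrrc8b 0.02, and the farther Lrrc8d reached 0.34. Flanking ratios thus spanned −0.39 to 0.34, a range that holds 7 of the 9 Gbp ratios above the floor. Inside the chromosome 5 cluster, Gbp6 lies between Gbp10 and Gbp11. The pseudogene Gbp2-ps at the end of the chromosome 3 cluster was not analysed here.

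**Figure D3:**
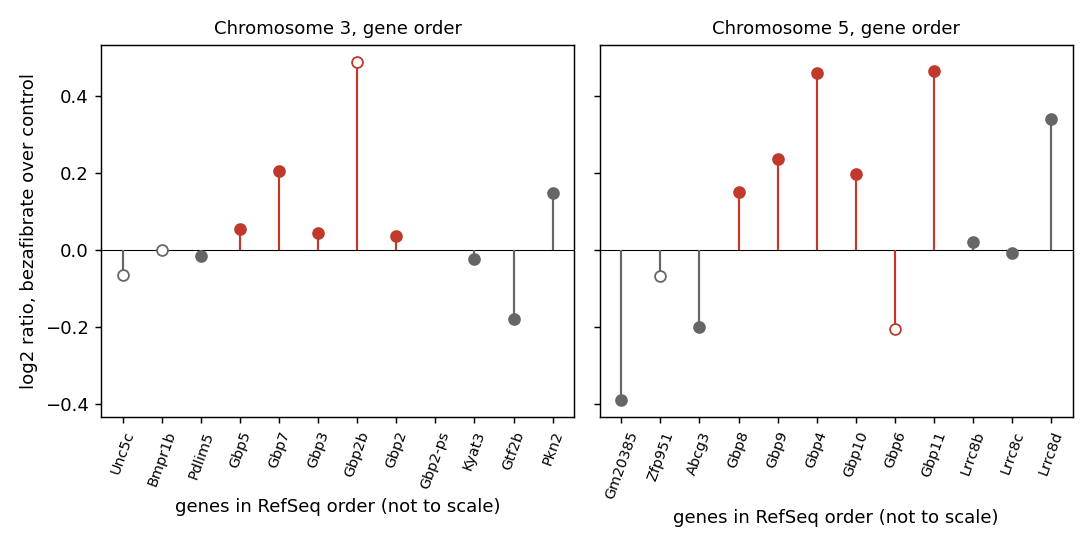
Log2 ratio of bezafibrate over control (y axis) for Gbp genes (red) and 3 flanking genes on each side (grey) in RefSeq gene order on chromosomes 3 and 5, open where the probe set lay below the floor; Gbp2 stands for the shared probe set. The 9 filled Gbp points are above 0, and flanking points lie on both sides of it.

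Genes that lead from interferon-gamma to the Gbp promoters differed little between the arrays. Ifng itself was within background, at 4.44 in control and 4.38 with bezafibrate. The receptor chains Ifngr1 (9.74 and 9.75) and Ifngr2 (6.76 and 6.78) read the same to within 0.02. The kinases Jak1 and Jak2 that they use had ratios of 0.09 and 0.07. The feedback inhibitors Socs1 and Socs3 each had a ratio of −0.30, the lowest in this list, and Stat3 at 0.13 the highest. Of the 11 genes read in the list, 7 were higher and 4 lower, 0 were past 1.5-fold in either direction, and the median was 0.02. Over all 22180 genes the median was 0.00, and 2.53% were past 1.5-fold in either direction.

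Irf1, the transcription factor that binds ISREs in Gbp promoters, read 8.47 in control and 8.70 with bezafibrate, which is 1.17-fold higher. Nlrc5, which drives MHC class I genes, had a ratio of 0.18. The other 8 interferon regulatory genes read were lower, among them Irf7 at −0.24, Batf2 at −0.24 and Irf8 at −0.07. Second probe sets, also above the floor, had the opposite sign for Irf8 (0.15) and for Irf2bp2 (0.30 against −0.22). Irf5, read only by a probe set shared with Tnpo3, had 0.32. The median of the 10 was −0.15 and 0 were past 1.5-fold. Among type I interferon receptors and the factors behind them, Stat2 had a ratio of 0.03 and Tyk2 0.01. The induced genes Usp18 and Isg15 in that list had −0.28 and −0.27, and the median of its 7 genes was 0.00.

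Other interferon-inducible GTPases are the nearest functional relatives of the Gbp genes. The immunity-related GTPases Irgm1, Irgm2 and Igtp, which keep the family off the cell's own membranes, had ratios of −0.12, −0.01 and −0.02. Gm12250, also called Irgb10, which helps release bacterial ligands to inflammasomes, had 9.25 in control and 9.23 with bezafibrate. Iigp1, an effector that coats vacuoles, read 8.39 and 8.64, 1.19-fold higher. The antiviral genes Mx1 and Mx2 were near or within background. Dnm1l, a mitochondrial fission GTPase placed in this list though not known for interferon induction, had 0.17. Of the 8 genes read by single-gene probe sets, 4 were higher and 4 lower, 0 were past 1.5-fold and the median was 0.06. The 6 of them above the floor had 2 higher and 4 lower, with a median of −0.01.

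The 4 further members of that list were read only by probe sets that name several genes, and all of these were higher with bezafibrate. Tgtp1 and Tgtp2, near-identical GTPases, share a pair of probe sets. One (17262250) read 7.27 in control and 7.89 with bezafibrate, 1.54-fold higher, and the other (17262234) 6.09 and 6.29, 1.14-fold higher. Ifi47 was read together with the olfactory receptor Olfr56, at 6.37 and 6.54. The very large GTPase Gvin1, named here after its values were seen, was read by 4 probe sets shared with predicted copies, with ratios from 0.21 to 0.26. With such probe sets included, the 12 members had a median of 0.17, beside 0.20 for the Gbp probe sets, which also include a shared one. The 2 middle values of these 12 were those of Mx2, within background on both arrays, and Dnm1l, each 0.17. The median of 0.17 thus rests on a dim gene and on one not known for interferon induction. In that count 2 genes of the list, Tgtp1 and Tgtp2 on the same probe set, were past 1.5-fold higher.

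Of 23 other interferon-gamma targets read by single-gene probe sets, 6 were higher and 17 lower, 0 were past 1.5-fold and the median was −0.09. Over all genes 44.7% were higher. Dtx3l, Cd74 and H2-D1, read only by shared probe sets, were all higher, at 0.29, 0.16 and 0.07, and with them the median was −0.05. The immunoproteasome genes Psmb10 and Psmb8 had the lowest ratios above the floor, at −0.37 (10.17 and 9.80) and −0.30 (10.41 and 10.11). Parp14, an ADP-ribosyltransferase, and Wars, the tryptophanyl-tRNA synthetase, had the highest, at 0.29 and 0.24. In the 16 members above the floor the median was −0.04, with 5 higher and 11 lower, beside a median of 0.20 for the 9 Gbp probe sets above it. The difference between these lists was not tested.

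**Figure D4:**
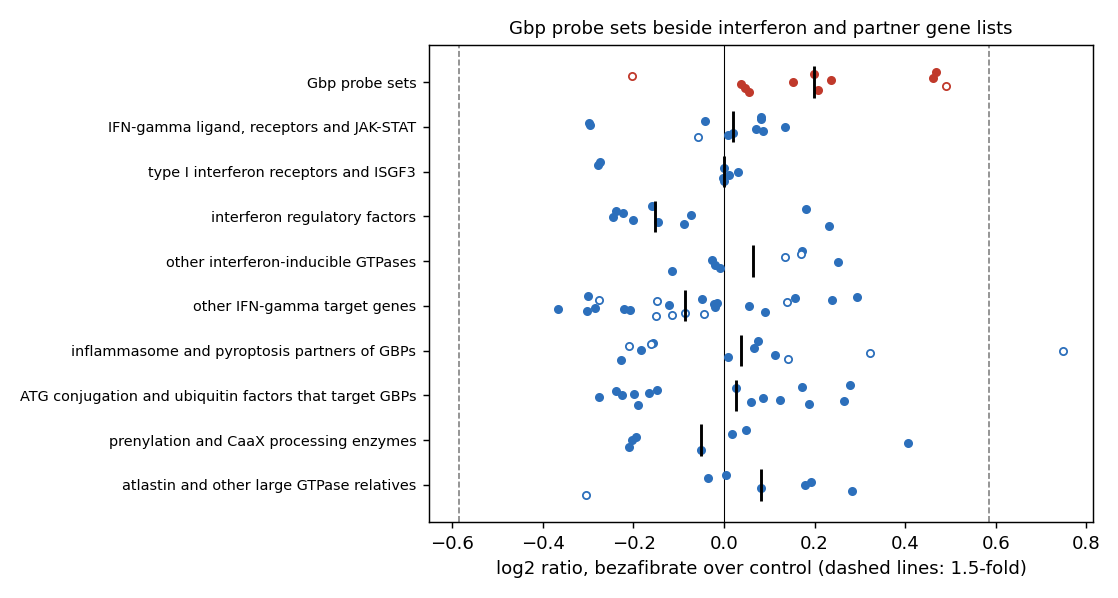
Log2 ratio of bezafibrate over control (x axis) for Gbp probe sets (red) and genes of 9 lists read by single-gene probe sets (blue), open where below the floor, with a black bar at each median and 1.5-fold dashed. The Gbp median is 0.20 and the list medians lie between −0.15 and 0.08. With shared probe sets included, as in the Gbp row, other interferon-inducible GTPases have a median of 0.17. That median is set by Mx2, which is within background, and Dnm1l.

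Partners through which Gbp proteins act had ratios on both sides of 0. In the inflammasome and pyroptosis list, Aim2, a sensor of cytosolic DNA, had 0.11 and Gsdmd, the pore-forming gasdermin, 0.07, with Ninj1 at 0.08. Casp1 and its adaptor gene Pycard had −0.23 and −0.18. Casp4, which encodes the mouse caspase-11 that senses lipopolysaccharide, was within background on both arrays. Of the 12 genes, 7 were higher and 5 lower. The 1 gene past 1.5-fold, Nlrp1b (named here after its value was seen), was within background on both arrays, at 2.42 and 3.17. The median was 0.04.

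The autophagy conjugation and ubiquitin genes that guide Gbp proteins to vacuoles had 8 higher and 7 lower of 15, with a median of 0.03. Rnf31, a subunit of the linear ubiquitin ligase, had 0.28 and Atg10 0.26, against Map1lc3a at −0.28 and Gabarapl2 at −0.24. Among 7 genes of prenylation and CaaX processing, 3 were higher and 4 lower, with a median of −0.05. Pggt1b, the catalytic subunit of geranylgeranyl transferase type I, had signals of 7.53 and 7.94, 1.32-fold higher. Fntb, the catalytic subunit of farnesyl transferase, had 6.74 and 6.53, and the CaaX protease Rce1 had −0.20. Pde6d, which carries prenylated proteins, had 0.05. Large GTPase relatives included Atl3, an atlastin of the endoplasmic reticulum, at 0.28 and the mitochondrial Opa1 at 0.19, with Mfn1 at −0.03 and Mfn2 at 0.01. Of 7 read, 5 were higher and 2 lower, with a median of 0.08. The 6 of them above the floor had 5 higher and 1 lower, with a median of 0.13. None of the 15 autophagy and ubiquitin genes, the 7 prenylation genes or the 7 relatives was past 1.5-fold on its brightest probe set. A second probe set of Gabarap, also above the floor, was past it, at 8.55 and 7.91 (ratio −0.64), against −0.20 on the brightest.

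Markers of the labelled cell type were clearly present. All 7 of the CD8 T cell markers read were above background, ranging over 7.68 to 11.10 for control and 7.50 to 11.05 for bezafibrate. All 7 were lower with bezafibrate, with a median ratio of −0.18, while 11098 of all 22180 genes were lower. Cells that could add Gbp signal were looked for by their markers. Of 7 macrophage and monocyte markers, 2 were above background on each array (Cd68 and Csf1r), and Adgre1, Lyz2, Itgam, Cd14 and Mertk were not. Their signals, summed on the unlogged scale and returned to log2, came to 7.74 in control and 7.75 with bezafibrate. The sums given for the other cell types were made the same way. Of 6 dendritic cell markers, 2 were above background in control and 1 with bezafibrate, with a sum of 9.27 and 8.88 carried by Cd209a. Cd209a entered by its brightest probe set, while its other (17507161) read 3.98 in control and 3.86 with bezafibrate, within background on both arrays. Of 5 B cell markers, 2 were above background on both arrays, Ighm and Cd79b, with a sum of 9.27 and 8.95. Ighm entered by its brightest probe set (9.05 and 8.72), while its others ran from 2.37 to 7.60 in control, some of them within background. Of 5 natural killer markers read, 2 were above background in control and 3 with bezafibrate (sum 10.69 on both, carried by Eomes, a factor that CD8 T cells also express). Fcer1g among them read 6.57 and 5.64, which is 1.90-fold lower with bezafibrate, while Ncr1 and Klrb1c were within background. Of 4 markers of CD4 T cells, 2 were above background on both arrays (Foxp3 and Zbtb7b, sum 6.51 and 6.71), while Cd4 itself was within background. None of 5 neutrophil markers was above background (sum 6.36 and 6.19). The part of these markers in the Gbp ratios was not tested. In cultures read in bulk, more cells that express a gene and more RNA per cell cannot be told apart.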

How the data were processed

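RNA of 2 cultures was amplified with a whole-transcript kit from 100 ng total RNA and read on Affymetrix arrays, per the labels' protocols. The authors deposited log2 signals per probe set. The submitters' processing notes name RMA and Affymetrix Expression Console; their versions and the genome build were not given in the sources used here. The log2 scale was read from the values. RMA equalises the probe intensities of both arrays before probe sets are summarised, so a change common to most genes would be lost before deposit. It can also compress true differences of dim probe sets. Even so, ratios of the silent genes spread more widely here (robust SD 0.31) than those of gene-naming probe sets above the floor (0.21). The deposited columns still differed slightly, with medians of 4.58 in control and 4.55 with bezafibrate.

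Of 41801 probe sets, 8008 were blank. Of the 33793 with values, 23521 named 1 gene, 1814 several and 8458 none in the platform annotation. All Gbp probe sets were used. Elsewhere the brightest single-gene probe set stood for a gene. Of 122 listed pathway genes 109 were read this way, and of 44 markers 39. The 1.5-fold limit, the lists and the members were chosen with earlier results of these data known. Named were all Gbp probe sets, up to 2 highest and 2 lowest genes above the floor per list, and a fixed set of interferon genes. The number of arrays limits precision, and no test was made.

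Alternatives were quantile normalization, a loess curve on level, centring on housekeeping genes, subtraction of the median ratio within classes of level and gene length, other fold limits and floors, single or shared probe sets, and mean in place of median. Python 3.11.15, numpy 2.4.6, pandas 2.3.3, statsmodels 0.14.6 and matplotlib 3.10.9 were used, and the calculations were tested on simulated data.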

Additional observations from a re-analysis of the deposited data

How the results depend on the processing

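The direction of all 11 Gbp ratios was the same under quantile normalization, loess on level, centring on housekeeping genes and subtraction of class medians of level and gene length, with 10 above 0 under each and 0 past 1.5-fold. Gbp4 ranged from 0.44 to 0.50 and Gbp11 from 0.44 to 0.51, while Gbp8 ranged from 0.08 to 0.20. A value counted as moved when it changed by more than the robust SD of silent gene ratios (0.31, scaled down for medians by the number of features), since no replicates exist. Of 130 alternatives for the family's counts and median, the shared pair and the list medians, 128 did not move by this measure. Some of these could not move. With 0 Gbp probe sets past 1.5-fold, a stricter limit or any subset of them must also give 0. Centring cannot change the difference between the shared and the single probe set. Of the list medians, 9 of 90 alternatives, in 5 lists, had the opposite sign to the main one, none over 0.04 in size. The median of other interferon-inducible GTPases was −0.01 for members above the floor, and with class medians subtracted the autophagy list was at −0.03, the interferon-gamma list at −0.02, the inflammasome list at −0.01 and housekeeping genes at 0.04. The means of the autophagy and interferon-gamma lists were each −0.02, against medians of 0.03 and 0.02. The values that moved were the Gbp median from probe sets that name several genes, which is the shared one alone, at 0.036 against 0.20, and the count of higher Gbp probe sets at the smaller limit of 0.32, which was 3 against 0. The share of all gene-naming probe sets above 0 was 44.3% as deposited and 49.0% after quantile normalization, 50.6% after loess, 55.3% after centring on housekeeping genes and 48.7% with class medians subtracted. No scaling moved the median of all probe sets by over 0.1; centring on housekeeping genes (9 read, with a median of −0.04) moved it to 0.04. No paired analysis was possible because each group has 1 array. For the same reason no replicate could be left out. Differences in probe sets within background, here Gbp2b alone and Gbp6, are limited by signal.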
